A study of Felis catus with 23 samples.

Results

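The miR-23, miR-27 and miR-24 clusters were represented by 5 mature microRNA (miRNA) names, hsa-miR-23a-3p, hsa-miR-27a-3p, hsa-miR-24-3p, hsa-miR-23b-3p and hsa-miR-27b-3p, among the 2026 names on the array. They were chosen by name. Each was carried by 2 probes of 15 spots, and all 10 probes were also in the deposited table of values. The material was serum of 23 cats. Of these, 11 had hypertrophic cardiomyopathy (HCM), a disease in which the heart muscle thickens, and 12 were healthy. There was 1 array per cat, and the groups are given by disease state alone, with no drug named. Each of the 5 names is that of a human probe on an Agilent 1-colour array. A signal thus shows that feline serum RNA bound to the probe for that human miRNA. Of the 543 names tested below, 504 were human, and others, such as hsv2-miR-H24, were viral.

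A miRNA is a short RNA that binds partly matching sites in messenger RNAs and lowers their output. In mammals the miR-23a, miR-27a and miR-24-2 hairpins are cut from one transcript, and the paralogous miR-23b, miR-27b and miR-24-1 hairpins from another, so mature miR-24-3p can come from either cluster while the other names come from one each. The clusters are known for roles in endothelial cells and vessel growth, in muscle atrophy and in the hypertrophic growth of heart muscle cells. hsa-miR-23a-3p also has a technical use: the log ratio of miR-451a, a red cell miRNA, to miR-23a-3p is a common index of haemolysis in serum, which takes miR-23a-3p as the steady partner. The questions were therefore at what level each name was measured in serum of the 2 groups, whether the names varied together, and how steady miR-23a-3p was from cat to cat.

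The arrays lay on 3 slides, with 3 HCM and 4 healthy arrays on slide 1 and 4 of each on slides 2 and 3. HCM arrays always sat in row 1 of a slide and healthy arrays in row 2, so row and group cannot be told apart. The 75th percentile of the processed intensity, by which arrays were scaled, ranged from 90.5 to 699 (median 290.5 in HCM and 239.6 in healthy arrays). Between 323 and 615 names were detected per array, where detected means that the scanner called at least 50% of the probe's spots well above background. Of 6 red cell names, miR-451a, miR-144-3p and miR-486-5p were detected on all 23 arrays, and miR-16-5p, miR-486-3p and miR-144-5p on 3, 1 and 0. Of 6 muscle names, miR-133b was detected on 10 arrays, miR-206 on 3, miR-208b on 2, miR-133a and miR-499a-5p on 1 each and miR-1 on 0.

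hsa-miR-23a-3p was the one name of the clusters that every array detected, and its level was about the same in the mean of both groups. hsa-miR-24-3p was detected in most cats and varied widely within both groups. The other names were detected in a minority: hsa-miR-27a-3p and hsa-miR-23b-3p on 6 arrays each (3 HCM and 3 healthy) and hsa-miR-27b-3p on 7 (3 HCM and 4 healthy). Levels are given as log2 of the processed intensity after scaling. Values under a floor of 5.45 were set to it, which is 2.45 on the log2 scale, and values at the floor have no order. Of the 5 names, 0 differed between HCM and healthy serum at an adjusted p of 0.05 in limma. Of all 543 names tested (those detected on at least 6 arrays), 0 passed as well (0%), with 37 at an unadjusted p under 0.05.

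hsa-miR-23a-3p, the name of the first hairpin in its cluster, lay between 4.03 and 8.83 in HCM serum with a median of 6.79, and between 6.10 and 9.13 in healthy serum with a median of 6.65. The groups overlapped between 6.10 and 8.83, and 6 of 11 HCM arrays lay above the healthy median. The lowest array, HCM replicate 2 at 4.03, stood well below the next, HCM replicate 7 at 5.62, and both lay below every healthy array. Means were 7.01 ± 1.42 (SD, n = 11) in HCM and 7.03 ± 0.96 (SD, n = 12) in healthy cats. The difference of -0.02 had a standard error of 0.46 and a 95% interval from -0.99 to 0.94, with an adjusted p of 0.994 in limma. A difference of up to about 1 log2 unit either way thus lay within the interval. In the authors' deposited log2 values the means were 7.12 ± 1.43 (SD, n = 11) and 6.97 ± 0.91 (SD, n = 12), so the sign of this small difference turned.

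By slide, hsa-miR-23a-3p was at 8.38, 4.03 and 6.53 in the HCM arrays of slide 1 and at 7.25, 6.10, 6.59 and 8.07 in the healthy ones. On slide 2 it was at 6.79, 7.37, 5.62 and 8.15 in HCM and at 6.34, 6.58, 7.32 and 6.71 in healthy arrays. On slide 3 it was at 6.39, 8.83, 6.64 and 8.35 in HCM and at 6.12, 6.13, 9.13 and 8.02 in healthy arrays. On slides 1 and 3 both groups held high and low arrays, while the healthy arrays of slide 2 lay between 6.34 and 7.32. HCM arrays differed from healthy ones by -0.69 within slide 1, by 0.24 within slide 2 and by 0.20 within slide 3. The lowest exact permutation p (2-sided) of the 3 was 0.629. The smallest p these slides allow is 0.0286.

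hsa-miR-24-3p, which both clusters can supply, was detected on 9 of 11 HCM arrays and 11 of 12 healthy arrays. It lay between the floor and 8.27 in HCM with a median of 4.56, and between the floor and 7.84 in healthy serum with a median of 4.48. Both groups covered the same wide range, a span of 5.83 log2 units over all arrays. Means were 4.97 ± 2.17 (SD, n = 11) in HCM and 4.68 ± 1.75 (SD, n = 12) in healthy cats. The difference of 0.29 (standard error 0.75, 95% interval from -1.27 to 1.86) had an adjusted p of 0.935 in limma. Its residual SD, the spread left within groups, was 1.96, the second largest of 543 names after miR-451a at 2.09. That of hsa-miR-23a-3p was 1.20 and ranked 22.

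On slide 1, hsa-miR-24-3p was at 7.03, 2.45 and 3.74 in HCM and at 5.22, 3.98, 5.17 and 7.54 in healthy arrays. Slide 2 gave 3.65, 5.06, 2.45 and 6.77 in HCM and 2.45, 4.17, 5.74 and 3.42 in healthy arrays. On slide 3 it was at 4.56, 8.27, 2.89 and 7.83 in HCM and at 3.38, 2.45, 7.84 and 4.78 in healthy arrays. The arrays were listed in the same order as for hsa-miR-23a-3p, and the same arrays were mostly the high and the low ones. The difference ran from -1.07 on slide 1 over 0.54 on slide 2 to 1.27 on slide 3, and its lowest exact permutation p (2-sided) was 0.457.

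hsa-miR-27a-3p, the middle hairpin of the first cluster, was at the floor on 15 arrays, 7 HCM and 8 healthy. Its highest values were 5.17 in HCM and 5.70 in healthy serum. The difference of 0.08 (standard error 0.39) had an adjusted p of 0.973 in limma, and 4 of 11 HCM arrays lay above the healthy median, which was at the floor. For these dim names a mean is largely a count of arrays above the floor, and folds against the floor are bounded by it.

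hsa-miR-23b-3p and hsa-miR-27b-3p come from the second cluster. hsa-miR-23b-3p was at the floor on 16 arrays and reached 3.99 in HCM and 4.27 in healthy cats, at a difference of 0.08 (standard error 0.22, adjusted p 0.937 in limma). hsa-miR-27b-3p was at the floor on 15 arrays and reached 5.41 in HCM and 5.69 in healthy cats, at a difference of -0.14 (standard error 0.42, adjusted p 0.939 in limma). The miR-23 names differ little in sequence from each other, as do the miR-27 names, so signal shared between their probes cannot be told apart from both miRNAs being present.

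**Figure D1:**
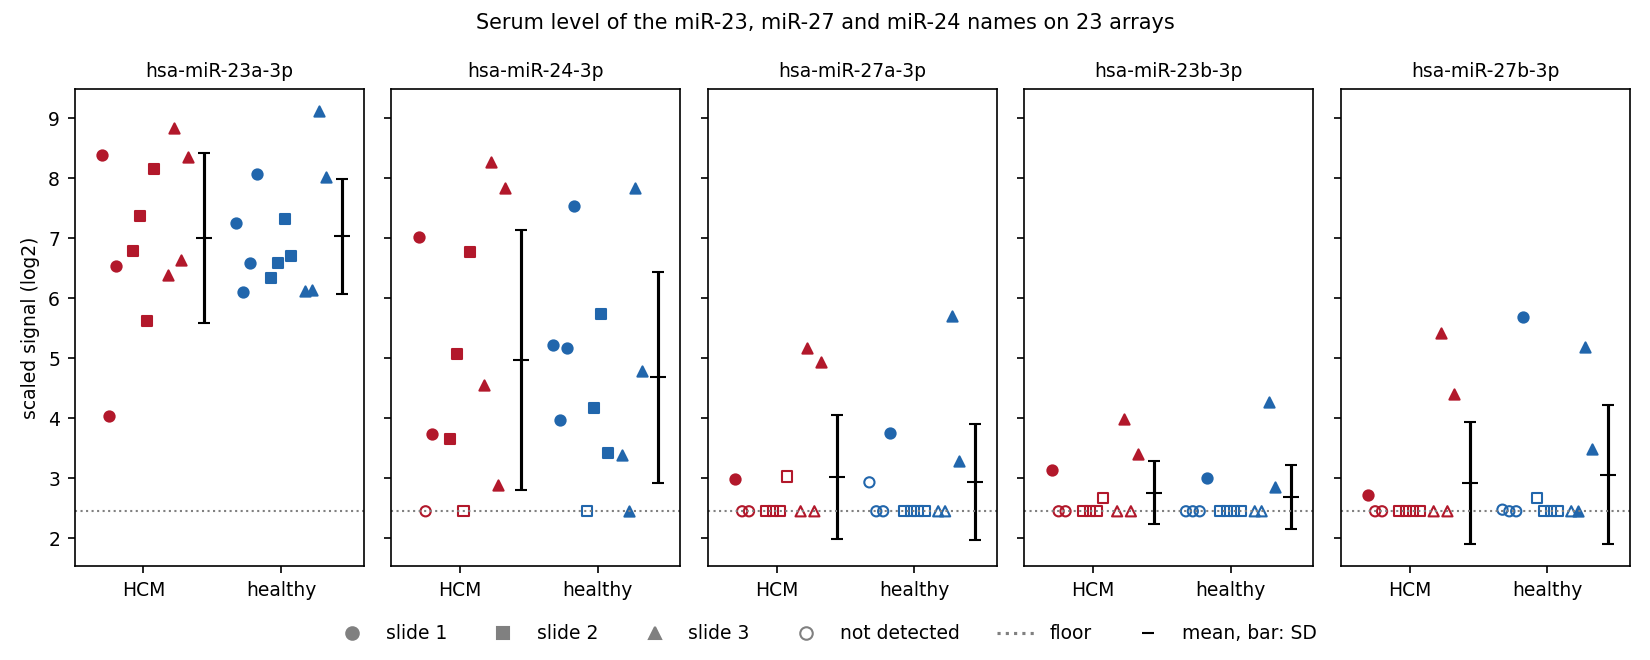
Scaled signal (log2, y axis) of each name on each of the 23 arrays, by group (x axis) and slide (marker), with filled markers where the name was detected. Bars give the mean and SD per group and the dotted line the floor at 2.45; heights are not comparable between names. HCM and healthy arrays overlap for every name, and the dim names sit at the floor on 15 or 16 of the 23 arrays.

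Slide changed 0 of the 5 names in a limma F-test with group in the fit, and 0 of 543 names in all (0%; 69 at an unadjusted p under 0.05). hsa-miR-27a-3p had the lowest slide p of the clusters, 0.0455 unadjusted and 0.375 adjusted in limma, with a slide 3 minus slide 1 difference of 0.83. The group difference varied between slides for 0 of 5 names by the interaction test in limma, and for 0 of 543 (0%; 13 at an unadjusted p under 0.05). With slide as a block, the group difference of hsa-miR-23a-3p was -0.05 and that of hsa-miR-24-3p 0.31.

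The 2 probes of each name rose and fell together. Over the arrays, the correlation between them was between 0.988 for hsa-miR-23b-3p and 0.999 for hsa-miR-24-3p. The spread of the spots of one probe was taken on the arrays that detected it. Its median coefficient of variation lay between 3.83% for a probe of hsa-miR-23a-3p and 13.9% for one of hsa-miR-23b-3p. The highest value on a single array was 26.8%, for a probe of hsa-miR-24-3p. For hsa-miR-23a-3p the probes differed by 0.08 in the median and at most 0.39. Those of hsa-miR-23b-3p differed by 0.35 in the median and at most 0.76, over the 6 arrays that detected both. Over the cats, hsa-miR-23a-3p spanned 5.09 log2 units with HCM replicate 2, and lay between 5.62 and 9.13 on the other arrays.

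The names were detected together. All 5 were detected on 6 arrays, HCM replicates 1, 10 and 12 and healthy replicates 16, 17 and 26, which came from slide 1 (2 arrays) and slide 3 (4 arrays), with 0 from slide 2. Of the other 17 arrays, 13 detected 2 of the names, 3 detected 1, and 1 (healthy replicate 15) detected 3. The 6 arrays held 6 of the 7 highest levels of hsa-miR-23a-3p, from 8.02 to 9.13; the remaining one was HCM replicate 8 at 8.15, where hsa-miR-27a-3p reached 3.02 and hsa-miR-23b-3p 2.67 without being called detected. These arrays were picked by the names themselves, so this is a description with no test. Their 75th percentile intensity lay between 165.9 and 503.1, beside 90.5 to 699 on the other arrays.

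Healthy replicate 16 had the highest level of 3 of the names, with hsa-miR-23a-3p at 9.13, hsa-miR-27a-3p at 5.70 and hsa-miR-23b-3p at 4.27, beside hsa-miR-24-3p at 7.84 and hsa-miR-27b-3p at 5.19. It also had the highest miR-451a of all arrays, at 12.34. HCM replicate 10 followed, with hsa-miR-23a-3p at 8.83, hsa-miR-24-3p at 8.27, hsa-miR-27a-3p at 5.17, hsa-miR-23b-3p at 3.99 and hsa-miR-27b-3p at 5.41, and miR-451a at 9.02. In HCM replicate 1 the pattern differed: hsa-miR-23a-3p was at 8.38 and hsa-miR-24-3p at 7.03, while hsa-miR-27a-3p at 2.99, hsa-miR-23b-3p at 3.14 and hsa-miR-27b-3p at 2.72 were near the floor and miR-451a was at 4.53. Healthy replicate 26 had the highest hsa-miR-27b-3p, 5.69, with hsa-miR-27a-3p at 3.75, hsa-miR-23b-3p at 3.01 and miR-451a at 5.33. High levels of the clusters thus occurred with high and with low miR-451a. Whether red cell RNA had a part in the co-detection was not tested.

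**Figure D2:**
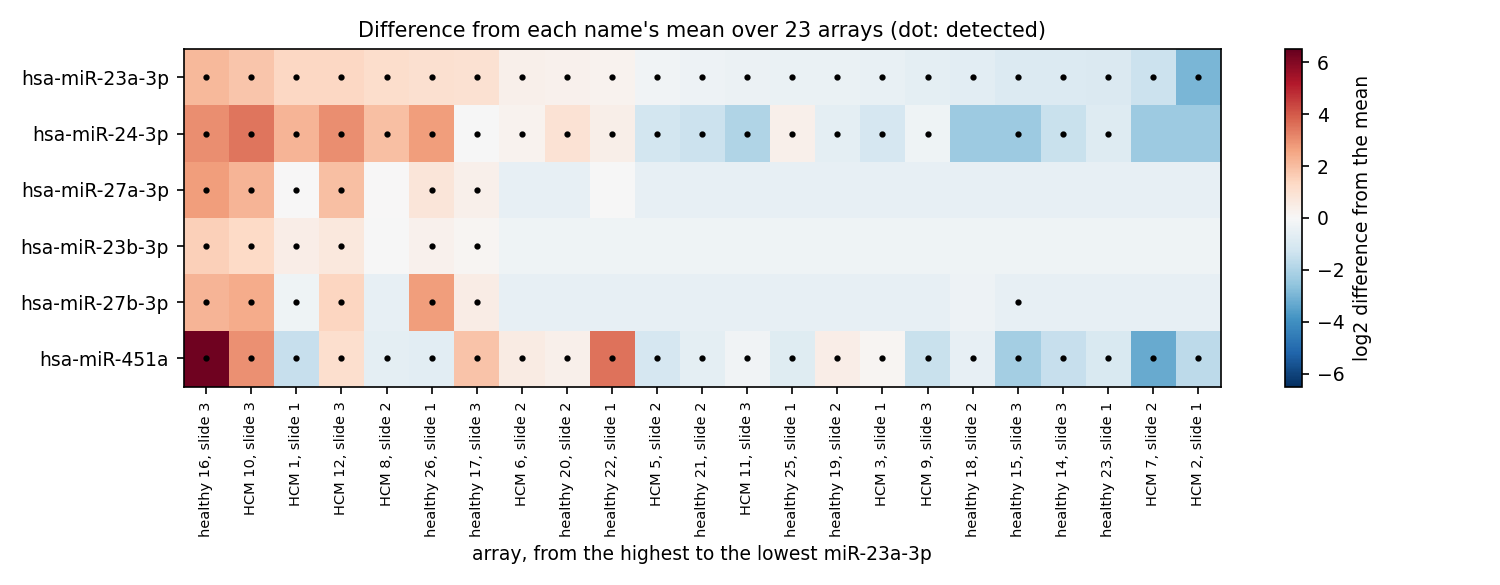
Each name's log2 difference from its own mean (colour) on the 23 arrays, ordered along the x axis from the highest to the lowest hsa-miR-23a-3p, with hsa-miR-451a in the last row; a dot marks detection. The dim names are raised and detected at the left end, in HCM and healthy arrays of slides 1 and 3.

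hsa-miR-23a-3p and hsa-miR-24-3p rose and fell together over the 23 cats, with Pearson's r = 0.880 and Spearman's rho = 0.874 (adjusted permutation p 0.00135 and 0.00142). Leaving out the arrays farthest from the median of hsa-miR-23a-3p (HCM replicate 2 and healthy replicate 16) gave r = 0.904. The relation was r = 0.902 within HCM (n = 11, adjusted permutation p 0.0141) and r = 0.863 within healthy cats (n = 12, adjusted permutation p 0.1). Within slides 1, 2 and 3 it was 0.929, 0.935 and 0.917, and with the means of group and slide removed 0.911. The p-values were adjusted over all 2700 relations of a member with another tested name. Of these, 122 passed (4.52%), 114 positive and 8 negative.

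All 10 pairs of members passed, with r between 0.67 (hsa-miR-23a-3p with hsa-miR-27b-3p) and 0.97 (hsa-miR-27a-3p with hsa-miR-23b-3p) and a median of 0.79. The median r of the members with other tested names was -0.04. In the 9 pairs other than hsa-miR-23a-3p with hsa-miR-24-3p, at least 1 name was at the floor on 15 or 16 arrays, so these values mainly restate which arrays rose above the floor and are a description. With a floor 2 times as high, 5 pairs passed. With normexp background correction 7 passed: hsa-miR-23a-3p no longer passed with hsa-miR-27a-3p (r = 0.454, adjusted permutation p 0.0584), hsa-miR-23b-3p (r = 0.237, 0.408) or hsa-miR-27b-3p (r = 0.445, 0.0660). Under a filter of detection on at least 12 arrays only hsa-miR-23a-3p with hsa-miR-24-3p could be computed, and it passed. Within HCM 6 pairs passed and within healthy cats 0; whether the relations differ between the groups was not tested, and the median r was 0.83 in each.

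Where both names of a pair were detected, their log ratio shows how closely they moved. The log2 ratio of hsa-miR-23a-3p to hsa-miR-23b-3p had an SD of 0.17 over 6 arrays, with 1 probe standing for each name. The difference between the 2 probes of hsa-miR-23b-3p had a larger SD, 0.24 over 6 arrays, so the ratio depends on the probe used. The ratio to hsa-miR-27a-3p had an SD of 0.80 over 6 arrays, that to hsa-miR-24-3p 1.03 over 20 arrays and that to hsa-miR-27b-3p 1.01 over 7 arrays. The names of one transcript, hsa-miR-23a-3p and hsa-miR-27a-3p, therefore kept a looser ratio on the arrays that measured them than hsa-miR-23a-3p and hsa-miR-23b-3p, which come from different transcripts but are close in sequence. The ratio of hsa-miR-27a-3p to hsa-miR-27b-3p, which are also close in sequence, had an SD of 0.92 over 6 arrays. That of hsa-miR-27a-3p to hsa-miR-23b-3p, from different transcripts, had 0.65 over 6 arrays. For hsa-miR-23b-3p to hsa-miR-27b-3p, from one transcript, it was 1.02 over 6 arrays. The SD of the ratio was thus low for the miR-23 names, by the probes that stood for them, and not for the miR-27 names. The cause was not tested. No test was made of these differences.

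The other arms of the same hairpins and their relatives did not pass the test of co-variation with hsa-miR-23a-3p. Of 9 such names on the array, 5 were detected on 0 arrays, and 3 were tested. hsa-miR-23a-5p, the opposite arm of the miR-23a hairpin, was detected on 22 arrays and had r = -0.13 with hsa-miR-23a-3p (adjusted permutation p 0.803). hsa-miR-23c, a further member of the miR-23 family, had r = -0.14 (0.792), and hsa-miR-3074-5p, made from the opposite strand at miR-24-1, r = 0.20 (0.694). None of the 3 differed between HCM and healthy serum in limma, with differences of -0.25, -0.24 and -0.18 (adjusted p 0.824, 0.805 and 0.888), beside a median of -0.10 over all tested names. hsa-miR-23c was detected on 11 of 11 HCM arrays and 6 of 12 healthy arrays, at levels near the floor in both, with medians of 2.78 and 2.77.

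Other than the members, the names most like hsa-miR-23a-3p over the 23 arrays were miR-342-3p (r = 0.83), miR-21-5p (0.83), miR-140-3p (0.82), miR-222-3p (0.79) and miR-4291 (0.77), each at an adjusted permutation p of 0.00135. miR-342-3p is a leukocyte miRNA, miR-21-5p is abundant in many tissues and in fibrosis, and miR-222-3p is found in vessel wall cells. For hsa-miR-24-3p the nearest were miR-342-3p (0.90), miR-4291 (0.89), miR-142-5p (0.85), a blood cell miRNA, miR-222-3p (0.81) and miR-29a-3p (0.79). For hsa-miR-27a-3p they were miR-19b-3p (0.94), miR-4291 (0.88), miR-26a-5p (0.83), let-7i-5p (0.82) and miR-342-3p (0.78), and for hsa-miR-23b-3p the same names in the same order, with r from 0.90 to 0.77. For hsa-miR-27b-3p they were miR-4291 (0.85), miR-19b-3p (0.76), miR-342-3p (0.75), miR-133b (0.74) and miR-26a-5p (0.74). Of these partners, miR-4291 was detected on 7 arrays, miR-26a-5p on 9, miR-19b-3p, let-7i-5p and miR-133b on 10 each, and miR-342-3p on 18. The 3 dim members were at the floor on 15 or 16 arrays. Their r values thus partly restate which arrays rose above the floor and are a description. Spearman's rho was 0.60 for hsa-miR-27b-3p with miR-4291 and 0.90 for hsa-miR-27a-3p with miR-19b-3p. Without the 2 farthest arrays, HCM replicate 10 and healthy replicate 16, the r of hsa-miR-27a-3p with miR-26a-5p fell to 0.49 and with let-7i-5p to 0.49. With miR-19b-3p and miR-4291 it was still 0.83 and 0.84. For hsa-miR-23b-3p, without the same arrays, r was 0.69 with miR-19b-3p, 0.90 with miR-4291, 0.50 with miR-26a-5p and 0.39 with let-7i-5p. For hsa-miR-27b-3p, whose farthest arrays were healthy replicate 26 and HCM replicate 10, r was 0.77 with miR-4291, 0.87 with miR-19b-3p, 0.54 with miR-133b and 0.78 with miR-26a-5p. How far these relations rested on the left-out arrays thus differed by name.

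Over the lists of cell markers, hsa-miR-23a-3p correlated past the threshold with 3 of 3 tested endothelium and vessel wall names (median r 0.76), 2 of 3 platelet and myeloid names (median 0.75), 1 of 3 red cell names (0.52), 0 of 3 lymphoid names (0.06), 0 of 1 liver names (0.58) and 1 of 1 muscle names (0.65), beside 41 of 542 names in all. Of the 14 tested serum references, 8 correlated with it (median r 0.66). None of these marker and reference names differed between HCM and healthy serum in limma. The 3 vessel wall names were miR-221-3p, miR-222-3p and miR-145-5p. miR-143-3p and miR-126-5p, also on that list, were detected on 0 and 2 arrays. miR-221-3p, miR-222-3p and the red cell name that passed, miR-451a, are also among the 8 serum references. On the platelet and myeloid list, miR-223-3p did not pass (r = 0.47, adjusted permutation p 0.214), and miR-126-3p was detected on 1 array. Fewer vesicles or cells releasing a miRNA and less of it from each cannot be told apart in serum.

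miR-451a is the red cell partner of hsa-miR-23a-3p in the haemolysis index. Their correlation was r = 0.660 and rho = 0.648 (adjusted permutation p 0.0184 and 0.0263), and r = 0.583 without HCM replicate 2 and healthy replicate 16. It was 0.645 within HCM (n = 11, adjusted permutation p 0.278) and 0.797 within healthy cats (n = 12, adjusted permutation p 0.222). Within slides 1, 2 and 3 it was 0.240, 0.607 and 0.930, and with the means of group and slide removed 0.648; whether the slides differ was not tested. It no longer passed without HCM replicate 7 (r = 0.629, adjusted permutation p 0.0518), HCM replicate 10 (r = 0.620, 0.0767) or healthy replicate 16 (r = 0.580, 0.0920).

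**Figure D3:**
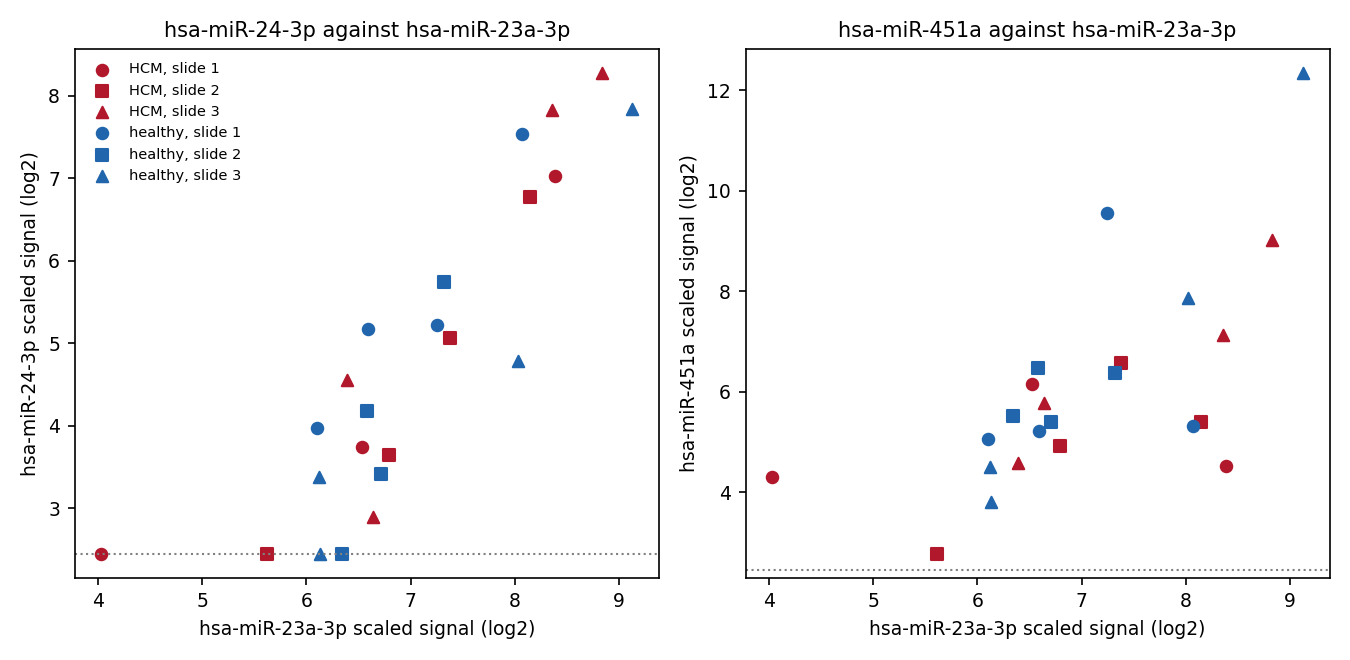
Scaled signal (log2) of hsa-miR-24-3p (left) and hsa-miR-451a (right) against that of hsa-miR-23a-3p on the same 23 arrays, coloured by group with a marker per slide; the dotted line is the floor. The left points follow one rising band in both groups (r = 0.880), while the right ones scatter more (r = 0.660), with healthy replicate 16 at the top.

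In the index, log2 miR-451a minus log2 hsa-miR-23a-3p, the 23 arrays ran from -3.86 in HCM replicate 1 to 3.22 in healthy replicate 16, with a median of -1.05. Over the arrays, the variance of miR-451a was 4.37 and that of hsa-miR-23a-3p 1.37. As the names varied together, the index had a variance of 2.51, less than that of miR-451a alone. HCM replicate 1 had the lowest index with a miR-451a of 4.53, which was not the lowest: HCM replicate 7 had a miR-451a of 2.77 and an index of -2.84. HCM replicate 2, with nearly the same miR-451a of 4.30 as replicate 1, had an index of 0.27. The order of cats by the index was thus set by hsa-miR-23a-3p as well as by miR-451a. miR-451a itself had a difference of -0.90 (standard error 0.80, adjusted p 0.805 in limma), which was -0.36 without healthy replicate 16 and -1.24 without HCM replicate 10.

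As a reference, hsa-miR-23a-3p was among the least steady of the names detected on all arrays. Stability was measured as M, the mean over all partners of the SD of the log2 ratio of 2 names, over the 270 names detected on all arrays. It is lower for a steadier name and does not depend on how arrays are scaled. hsa-miR-23a-3p had M = 1.33, the sixth highest of 270, beside a median of 0.80 and a lowest value of 0.61. Its M was 1.66 times the median. As M averages over all 270 names, viral ones included, a high M means distance from the bulk of that set. The 5 names with a higher M were miR-106b-5p (1.33), miR-29a-3p (1.36), miR-1299 (1.42), miR-145-5p (1.48) and miR-451a (2.14). miR-144-3p (1.29), miR-140-3p (1.26) and miR-21-5p (1.19) were also high, while miR-30d-5p (0.80) was at the median. A high M was thus not particular to hsa-miR-23a-3p. The 5 steadiest names were miR-4787-5p (0.61), miR-4515 (0.63), miR-150-3p (0.65), miR-4767 (0.65) and miR-1202 (0.66).

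Of 25 names in use as serum references, 24 were on the array, and 6 were detected on all arrays and could be ranked. miR-423-5p (M = 0.84) and miR-320a (0.85) lay near the median, miR-181a-5p (1.05), miR-92a-3p (1.09) and miR-25-3p (1.22) were less steady, and miR-451a was last of all names at 2.14. hsa-miR-23a-3p was thus less steady than 5 of these 6, all but the red cell name miR-451a. Without HCM replicate 2, the array with the lowest hsa-miR-23a-3p, M fell to 1.17 and the rank from the least steady went from 6 to 20. Without any other single array the rank lay between 4 and 9.

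**Figure D4:**
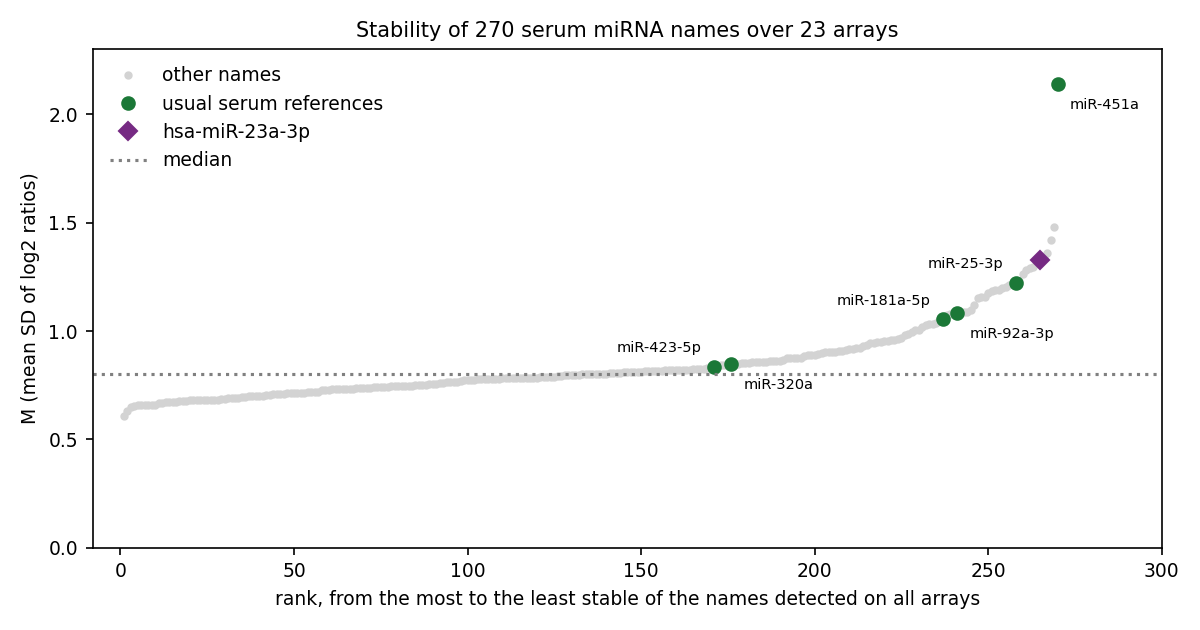
M (y axis, mean SD of log2 ratios over 23 arrays) of the 270 names detected on all arrays, ranked along the x axis from the most to the least stable, with the 6 usual serum references that were on all arrays and hsa-miR-23a-3p marked. hsa-miR-23a-3p (M = 1.33) lies at the upper end, above 5 of the 6 references and well above the median of 0.80.

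Part of the spread of hsa-miR-23a-3p followed the brightness of the array. Before scaling, its log2 signal had r = 0.616 and rho = 0.648 with the log2 75th percentile of the array (adjusted permutation p 0.0172 and 0.00980 over 20 such relations, r = 0.587 without the 2 farthest arrays). After scaling r was 0.132 and rho 0.097 (adjusted permutation p 0.594 and 0.733). The SD over the arrays was 1.47 before scaling and 1.17 after it. Most of the spread thus remained in the scaled values.

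Setting every array against one of these names, after scaling to the 75th percentile and flooring, raised the median spread of the tested names within groups. The median residual SD within groups was 0.54 log2 units over 543 names with the 75th percentile alone. It was 1.32 with hsa-miR-23a-3p as the reference, 1.14 with hsa-miR-27a-3p, 2.04 with hsa-miR-24-3p, 0.77 with hsa-miR-23b-3p and 1.25 with hsa-miR-27b-3p. miR-451a went the other way: with hsa-miR-23a-3p as the reference its SD went from 1.66 to 1.32 in HCM and from 2.41 to 1.75 in healthy cats. The references other than hsa-miR-23a-3p were at the floor on some or most arrays. There the reference is a constant, and values stay scaled to the 75th percentile alone. Their medians thus mix both kinds of scaling and are not comparable with each other. With hsa-miR-23a-3p as the reference 0 of 542 names differed between HCM and healthy serum in limma (0%), and 0 had an unadjusted p under 0.05, beside 37 with the 75th percentile. The median standard error of a group difference went from 0.22 to 0.55 log2 units. The index itself differed by -0.87 between HCM and healthy serum (standard error 0.55, adjusted p 0.999 in limma), from -1.45 ± 1.32 (SD, n = 11) against -0.58 ± 1.75 (SD, n = 12).

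**Figure D5:**
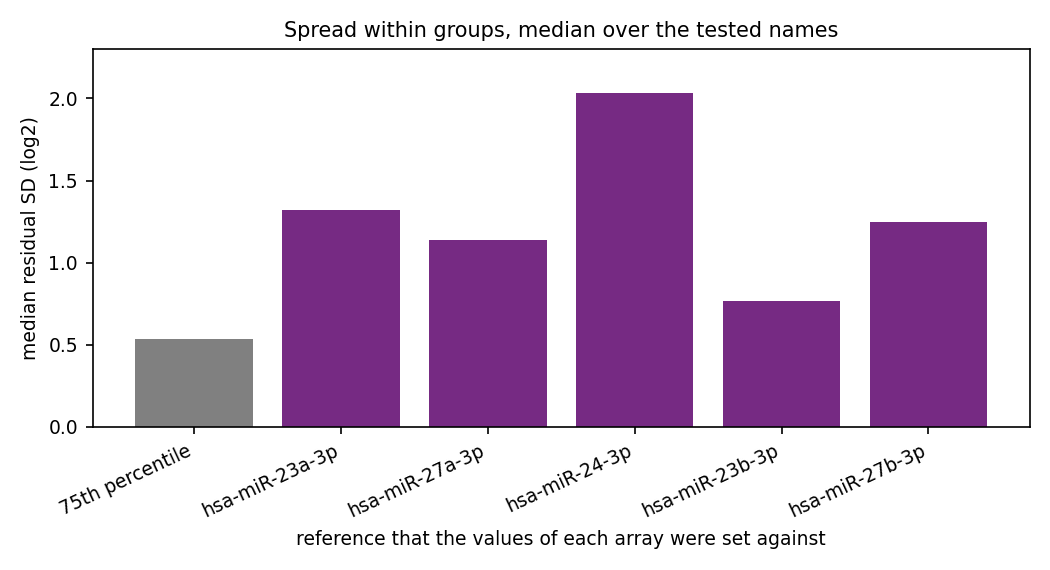
Median over the tested names of the residual SD within groups (y axis, log2 units). Arrays were scaled to their 75th percentile alone (grey) or then also set against 1 of the 5 names (purple). On arrays where that name was at the floor, only the percentile scaling acts. All 5 bars for single names are higher than the 0.54 of the 75th percentile, with hsa-miR-24-3p highest at 2.04.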

How the data were processed

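MicroRNAs were measured in the serum of 23 cats, 11 with HCM and 12 healthy, on 1-colour Agilent arrays. The scanner files deposited by the authors hold spot intensity with background subtracted and no normalization between arrays, made by Agilent Feature Extraction 10.7.3.1 per the submitters' processing notes. Other columns of them are flags of 0 or 1 per the file headers. The authors' deposited table holds log2 values whose normalization stays unknown. Against the processed signals above an intensity of 8, its correlation per array was 0.987 to 0.9998 and its slope 0.950 to 0.980, so the log base and direction are known, and its column medians were 2.98 to 3.31.

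Outlier spots (1.81% to 3.95% per array) and control spots were left out, 0 spots were saturated, and the other spots of each probe were averaged. Scaling set the 75th percentile of the 508 probes that every array detected equal between arrays, since 18.6% of probe values were detected. The floor was the 5th percentile of detected signals, and values were then log2 transformed. The probe with the highest mean stood for a name. Groups, slides and interactions were fitted with limma 3.58.1 in R 4.3.3 over 543 names with Benjamini-Hochberg adjustment at 0.05. Intervals use 21 residual degrees of freedom. Correlations used 100000 permutations, 2-sided. The scripts were tested on simulated data in Python 3.11.15.

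Named were the 5 members, the 5 names most correlated with each, the 5 with the lowest M, tested relatives, serum references detected on all arrays and miR-451a. Other names were picked from the marker lists or results after their values were seen. Members and lists were chosen with earlier results of these data known. The number of arrays limits precision. The p-values rest on the spread between cats, which with 1 array each cannot be told apart from that between arrays. Alternatives covered scaling, background, floor, filter, probe, source of values, slide and left-out arrays. Background correction by normexp (offset 50) used the median signals, since the mean signals it was planned for were not available here. No genome position was used.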

Additional observations from a re-analysis of the deposited data

Results flagged for a closer look

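In 5 of 25 sets of 4 arrays from one slide and group, 1 array stood apart from the other 3 by a gap test (Dixon's) at the 95% level, which by chance marks about 1 in 20 sets. On slide 2, hsa-miR-27a-3p was at 3.02 and hsa-miR-23b-3p at 2.67 in HCM replicate 8, with the other HCM arrays at the floor of 2.45. On slide 1, hsa-miR-23b-3p was at 3.01 and hsa-miR-27b-3p at 5.69 in healthy replicate 26, above the other healthy arrays. On slide 2, hsa-miR-27b-3p was at 2.67 in healthy replicate 18, with the others at the floor. In 4 of the 5 sets the other 3 arrays were all at the floor, where any value above it stands apart. hsa-miR-23a-3p and hsa-miR-24-3p had no such set.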

How the results depend on the processing

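No paired analysis was possible because the HCM and healthy cats share no replicate number. Of the 5 members, 0 passed between HCM and healthy serum under 11 other settings and 23 left-out arrays; with detection on at least 12 arrays only 2 were tested, and 0 passed. Over all names the count of 0 went to 1 with the total gene signal, 4 with the deposited values and 2 with a floor of 1; with hsa-miR-23a-3p as the reference it went to 2 with that floor. The signs of the small differences were not settled. For hsa-miR-23a-3p the difference was 0.054 with the percentile over all probes, 0.40 without scaling, 0.0639 with normexp and 0.15 in the deposited values. hsa-miR-27a-3p was at -0.23 with normexp, -0.20 in the deposited values and -0.39 with the lower floor, and hsa-miR-23b-3p at -0.24 with normexp and -0.019 with a floor 2 times as high. Without scaling, hsa-miR-23a-5p was at 0.10, hsa-miR-23c at 0.20 and hsa-miR-3074-5p at 0.24, while the median of all names moved from -0.10 to 0.25; normexp moved it to -0.25. Relative to that median, hsa-miR-24-3p stayed positive under all 12 settings, by 0.33 to 0.65. Leaving out 1 array gave -0.20 to 0.28 for hsa-miR-23a-3p, -0.13 to 0.34 for hsa-miR-27a-3p, -0.0361 to 0.58 for hsa-miR-24-3p, -0.0452 to 0.22 for hsa-miR-23b-3p and -0.38 to 0.10 for hsa-miR-27b-3p. The 10 correlated pairs became 7 with normexp, 5 with the higher floor and 1 with detection on 12 arrays, where fewer names were tested, and 9 or 10 without 1 array. The correlation of hsa-miR-23a-3p with hsa-miR-24-3p was 0.82 to 0.91 under the other settings and left-out arrays and passed in each. Within healthy cats alone it did not pass (r = 0.863, adjusted permutation p 0.1). The correlation of hsa-miR-23a-3p with miR-451a was 0.58 to 0.73 over the left-out arrays. The rank of hsa-miR-23a-3p from the least steady was 6 to 18 under 5 other settings, 18 with normexp, and 4 to 20 over the left-out arrays. The cause of these shifts was not tested. Signals near background limit hsa-miR-27a-3p, hsa-miR-23b-3p and hsa-miR-27b-3p most.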
